A study of Mus musculus with 10 samples.

Results

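The constitutive proteasome genes were examined in tumour-associated macrophages from mice given JHU083 or vehicle. Members were taken by symbol as every gene named Psma, Psmb, Psmc, Psmd, Psme, Psmf or Psmg with a number, leaving out pseudogenes and the interferon-induced Psmb8, Psmb9 and Psmb10. This gave 45 genes at 46 loci of the 46957 loci listed, because Psmd5 was listed at 2 loci. By role they were 8 genes of the 20S alpha ring, 8 of the 20S beta ring, 6 ATPases and 3 other subunits of the 19S base, 8 subunits of the 19S lid, 7 assembly chaperones, 4 activators and the inhibitor Psmf1. Of the 46 loci, 44 had enough fragments to be tested. Psmb11, the beta subunit of thymic epithelium, had at most 3 fragments in any library, and the second Psmd5 locus at most 7.

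The proteasome degrades ubiquitin-tagged proteins. Its 20S core is a stack of alpha and beta rings with the proteolytic sites in the beta subunits Psmb5, Psmb6 and Psmb7; the 19S particle caps it, with a base whose ATPases unfold substrates and a lid that removes ubiquitin. Interferon replaces the catalytic subunits with Psmb8, Psmb9 and Psmb10, and it also induces the PA28 activator made of Psme1 and Psme2, which together favour peptides for antigen presentation by macrophages and other cells.

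The samples were macrophages sorted from mammary tumours, 5 from mice given vehicle (PBS) and 5 from mice given JHU083. Tumours came from 100000 cells of 4T1, a mouse breast carcinoma line, implanted in a mammary fat pad of each BALB/cJ mouse. The drug JHU083 is a prodrug of the glutamine antagonist 6-Diazo-5-oxo-L-norleucine and was given at 1 mg/kg on days 7 to 13, and both groups were harvested on day 14. The sort kept live cells with CD45, CD11b and F4/80 and without CD8, Ly6C and Ly6G; the animals' age and sex are not in the labels used here. Poly(A) RNA was sequenced to 11147870 to 14575932 fragments per library in vehicle and 13638381 to 15740701 in JHU083. The labels do not say that each sample came from a separate mouse, so the p-values measure the spread between these samples, which may be technical.

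Some libraries differed in ways that the treatment does not describe. The ribosomal-RNA-like loci Rn18s-rs5 and Gm42418 had a value of 0 in vehicle replicates 2, 4 and 5 and in JHU083 replicates 1 and 3, and were above 0 in the other libraries. JHU083 replicate 3 stood apart from the other JHU083 libraries in the proteasome genes. The median member, relative to its own vehicle mean, was at 0.785, 0.704, 0.803 and 0.808 in JHU083 replicates 1, 2, 4 and 5 and at 0.997 in replicate 3. The vehicle libraries lay between 0.926 and 1.08, and the median of all tested loci lay between 0.993 and 1.00 in every library. Medians by role and the members described by sample are therefore given with and without this library. Mitochondrial transcripts made up 1.53% to 2.09% of fragments in vehicle and 2.14% to 2.44% in JHU083 (2.40% in replicate 3), with no overlap, and their part in the proteasome results was not tested.

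Proteasome transcripts were lower in macrophages from JHU083-treated mice. Of the 44 tested loci, 24 were lower at an adjusted p under 0.05 (54.5%) and 0 were higher; over all 12501 loci tested, 18.3% were lower and 18.4% higher (edgeR quasi-likelihood test). Among the 7378 loci within the expression range of the members, leaving out the scarce Psma8, 18.5% were lower. The log2 fold change was negative for 41 of the 44, with a median of -0.27 against 0.01 for all loci tested. In 9 members every JHU083 library lay below every vehicle library, against 11.1% of all loci tested and 11.4% of loci in the same expression range. In bulk samples a smaller share of cells that express a gene and less RNA per cell cannot be told apart.

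The count depended on single libraries and on the split by ribosomal-RNA-like loci. With each library left out in turn, 15 to 36 members were lower, and 15 of the 24 passed in all 10 of these fits. Without JHU083 replicate 3, 36 members were lower, including all 24, and 1 was higher, while 23.1% of all loci were lower. Without vehicle replicate 1, or without JHU083 replicate 2, the count was 15, with 15.1% and 16.2% of all loci lower. Within the 5 samples listed at 0 for Rn18s-rs5, 1 member was lower (median log2 fold change -0.14, 4.61% of all loci lower), and within the other 5 samples 19 were lower (median -0.39, 11.7% of all loci lower). Scaling by library size alone shifted the median of all loci to -0.07, with 1564 loci higher and 3141 lower in place of 2296 and 2293, and called 34 members lower.

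**Figure D1:**
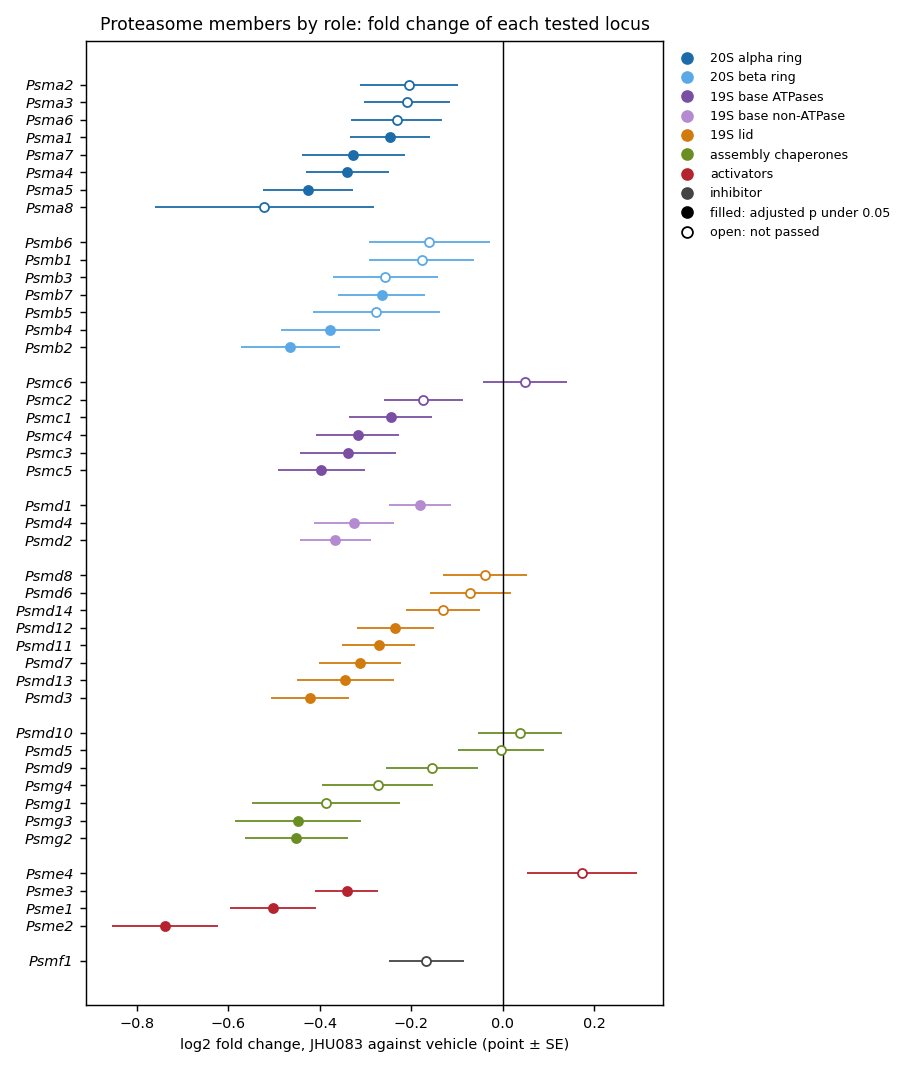
Log2 fold change of JHU083 against vehicle (x axis, point ± SE) for the 44 tested member loci (y axis), coloured by role, with filled points for an adjusted p under 0.05. The points lie between -0.74 (Psme2) and 0.17 (Psme4), and 41 of 44 are left of 0.

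Promoters were searched for 3 motifs because the proteasome genes have known regulators. Of the 45 genes, 37 had a RefSeq promoter (GRCm38.p6, 250 bases before to 50 bases after the start). Psma8, Psmb1, Psmb2, Psmb7, Psmc3, Psmd3, Psmd7 and Psmg2 had none and were not searched, so a motif in these genes is unknown. Both strands were searched for the interferon-stimulated response element (GAAA, any 2 bases, GAAA), the antioxidant response element TGACNNNGC that Nfe2l1 and Nfe2l2 bind, and the CCAAT box; no match of one motif overlapped a match of another. The interferon motif was in 5 of the 37 (13.5%), against 3.99% of 27025 genes with a promoter. The antioxidant motif was in 6 (16.2% against 14.0%) and CCAAT in 13 (35.1% against 41.1%). These are letter matches and not measured binding. The 5 interferon matches are shown because they include the activator Psme1, and the antioxidant matches of Psmb5, Psmb6 and Psme4 because they are the catalytic subunits and the activator that carry one; each is a 30-base stretch on the gene's strand with the match in capitals.
Psme1: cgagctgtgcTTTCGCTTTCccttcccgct
Psmd4: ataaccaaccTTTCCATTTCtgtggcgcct
Psmb3: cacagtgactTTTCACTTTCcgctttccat
Psmd9: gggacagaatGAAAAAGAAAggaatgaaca
Psmg4: gcgcgcatctGAAAGTGAAAgagcgttccg
Psmb5: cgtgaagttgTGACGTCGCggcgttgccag
Psmb6: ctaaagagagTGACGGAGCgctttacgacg
Psme4: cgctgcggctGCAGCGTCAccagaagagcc

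The Psme1 stretch lies at chr14:55578493-55578522, with the match beginning at base 10 counted from the RefSeq start, and the Psmg4 stretch at chr13:34162969-34162998, with the match from base 16. Those of Psmd4 (chr3:95042675-95042704), Psmb3 (chr11:97703261-97703290) and Psmd9 (chr5:123228021-123228050) lie upstream, with matches beginning 80, 163 and 159 bases before the start. The antioxidant matches of Psmb5 (chr14:54618023-54618052), Psmb6 (chr11:70525338-70525367) and Psme4 (chr11:30771758-30771787) begin 47, 9 and 7 bases before the start. Of the 5 genes with the interferon motif, Psme1 (log2 fold change -0.50) and Psmd4 (-0.32) were lower in JHU083, while Psmb3 (-0.26), Psmd9 (-0.15) and Psmg4 (-0.27) did not pass the test. Of the 6 with the antioxidant motif, Psmd12 (-0.23) was lower, and Psmb5, Psmb6, Psmc6, Psmd9 and Psme4 did not pass. For comparison, 54.5% of all tested members and 18.3% of all loci tested were lower. Members not searched included the lower genes Psmb2, Psmb7, Psmc3, Psmd3, Psmd7 and Psmg2. Whether calls differ with a motif was not tested. Psme2, which had the lowest log2 fold change of the members, had no match to any of the 3 motifs in its windows.

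Activators open the gated core. Psme1 and Psme2 form the PA28 ring on it, Psme3 is the nuclear PA28 gamma and Psme4 is PA200. Of the 4, Psme1, Psme2 and Psme3 fell and none rose. Psme2 (chr14:55587441-55591113 in GRCm38) was at 236, 199, 178, 215 and 232 CPM (fragments scaled to a common library size) in vehicle replicates 1 to 5 and at 131, 97.3, 158, 128 and 122 CPM in JHU083 replicates 1 to 5. All JHU083 libraries were below all vehicle libraries, replicate 3 included. Mean Psme2 went from 212 ± 24.2 to 127 ± 21.9 CPM (SD, n = 5) and had a log2 fold change of -0.74 (adjusted p = 0.000283, SE 0.12). It was the 1 member that passed within the samples listed at 0 for Rn18s-rs5, with -0.57 (adjusted p = 0.0285).

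Psme1 lies 5911 bases from Psme2, at chr14:55578123-55581529. Its levels were 294, 253, 229, 271 and 292 CPM in vehicle and 195, 159, 222, 185 and 186 CPM in JHU083. The groups did not overlap, although JHU083 replicate 3 came close to vehicle replicate 3. The mean went from 268 ± 27.3 to 189 ± 22.4 CPM (SD, n = 5) and had a log2 fold change of -0.50 (adjusted p = 0.00103, SE 0.09). Psme3 (chr11:101316213-101323537) had 88.4, 76.7, 78.4, 78.7 and 86.9 CPM in vehicle and 62.1, 61.7, 66.1, 66.7 and 66.3 CPM in JHU083. Again the groups were apart, and the JHU083 libraries were close to each other. The Psme3 mean went from 81.8 ± 5.38 to 64.6 ± 2.47 CPM (SD, n = 5) and had a log2 fold change of -0.34 (adjusted p = 0.00189, SE 0.07). All 3 passed with any single library left out, and without JHU083 replicate 3 the log2 fold changes were -0.83 for Psme2, -0.56 for Psme1 and -0.35 for Psme3.

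Psme4 (chr11:30771726-30880361) did not pass the test. It had 58.0, 66.1, 68.3, 68.9 and 61.8 CPM in vehicle and 74.6, 80.5, 50.2, 72.4 and 86.4 CPM in JHU083. In JHU083, 4 libraries were above every vehicle library and replicate 3 was below every one. The means of 64.6 ± 4.65 and 72.8 ± 13.8 CPM (SD, n = 5) corresponded to a log2 fold change of 0.17 (adjusted p = 0.274, SE 0.12), which became 0.28 (adjusted p = 0.00894) without JHU083 replicate 3 and -0.07 (adjusted p = 0.842) within the samples listed at 0 for Rn18s-rs5. Summed over the 4 activators, CPM was 626 ± 52.5 in vehicle and 454 ± 35.2 in JHU083 (SD, n = 5), a ratio of means of 0.725, and the groups did not overlap.

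**Figure D2:**
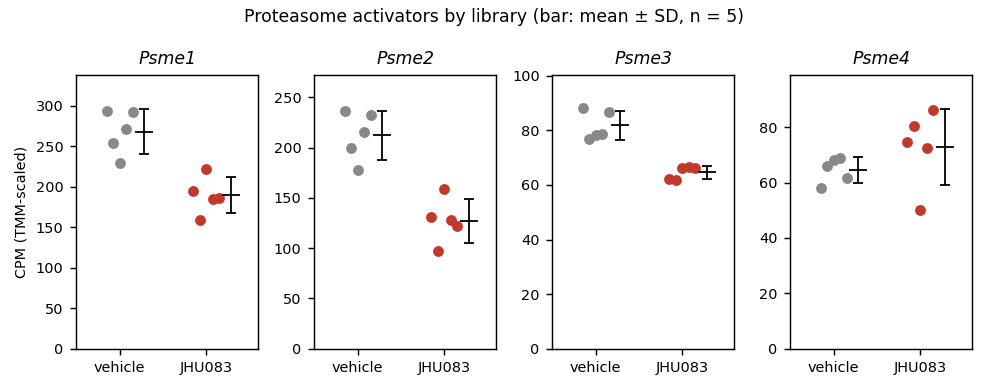
CPM of the 4 activators (y axis, from 0) in the 5 vehicle (grey) and 5 JHU083 (red) libraries, each point a library, with the mean ± SD as a bar. Psme1, Psme2 and Psme3 show no overlap of the groups, and Psme4 has 1 JHU083 library, at 50.2 CPM, under all others.

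The alpha ring forms the gate of the core. All 8 alpha loci had a negative log2 fold change, with a median of -0.29, and 4 were lower. Psma5 (chr3:108256926-108279974) stood at 116, 114, 99.6, 103 and 109 CPM in vehicle and at 74.3, 65.0, 97.8, 81.8 and 83.9 CPM in JHU083. The groups did not overlap, by a narrow margin at replicate 3. Its mean went from 108 ± 6.90 to 80.6 ± 12.2 CPM (SD, n = 5) and had a log2 fold change of -0.43 (adjusted p = 0.00412, SE 0.10). Psma4 (chr9:54950790-54958030) had 149, 129, 123, 125 and 139 CPM in vehicle and 105, 91.9, 126, 104 and 97.5 CPM in JHU083. Only JHU083 replicate 3 reached the vehicle range. Psma4 went from 133 ± 10.8 to 105 ± 13.0 CPM (SD, n = 5) and had a log2 fold change of -0.34 (adjusted p = 0.00954, SE 0.09).

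Psma7 (-0.33, adjusted p = 0.0346) and Psma1 (-0.25, adjusted p = 0.0408) were also lower. Each of these 2 calls was lost when any of 7 single libraries was left out, with adjusted p from 0.0552 to 0.0856 for Psma7 (vehicle replicates 1, 4 and 5 and JHU083 replicates 1, 2, 4 and 5) and from 0.0579 to 0.108 for Psma1 (vehicle replicates 1, 2 and 5 and the same JHU083 replicates). Psma2, Psma3 and Psma6 had log2 fold changes of -0.20, -0.21 and -0.23 and did not pass. Psma8, the testis alpha subunit that resembles Psma7, was scarce at 2.65 ± 0.484 and 1.85 ± 0.541 CPM (SD, n = 5) and did not pass (-0.52, adjusted p = 0.101). Without JHU083 replicate 3 all 8 alpha loci were lower, with a median of -0.36, -0.50 for Psma5 and -0.41 for Psma4.

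The beta ring carries the proteolytic sites. Its 7 tested genes had a median log2 fold change of -0.26, and Psmb2, Psmb4 and Psmb7 were lower. Psmb2 (chr4:126677630-126709714), a structural subunit, had 118, 97.7, 87.2, 105 and 112 CPM in vehicle and 70.7, 66.6, 95.1, 68.8 and 76.0 CPM in JHU083. JHU083 replicate 3 lay within the vehicle range and the other 4 below it. The mean of Psmb2 went from 104 ± 12.2 to 75.4 ± 11.5 CPM (SD, n = 5) and had a log2 fold change of -0.46 (adjusted p = 0.00441, SE 0.11). Psmb4 (chr3:94884093-94886961), another structural subunit, had 278, 243, 240.2, 267 and 288 CPM in vehicle and 196, 167, 266, 195 and 189 CPM in JHU083. The pattern was the same, with JHU083 replicate 3 among the vehicle libraries. Psmb4 went from 263 ± 21.1 to 203 ± 37.2 CPM (SD, n = 5) and had a log2 fold change of -0.38 (adjusted p = 0.0144, SE 0.11).

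Of the 3 constitutive catalytic genes, Psmb7 passed the test. Psmb7 (chr2:38588036-38644087), the trypsin-like subunit, was at 154, 135, 138, 141 and 156 CPM in vehicle and at 131, 97.4, 141, 112 and 121 CPM in JHU083. Only JHU083 replicate 3 was inside the vehicle range. The mean went from 145 ± 9.48 to 120.4 ± 16.9 CPM (SD, n = 5) and had a log2 fold change of -0.26 (adjusted p = 0.0398, SE 0.09). The call was lost, with adjusted p from 0.0570 to 0.0925, when vehicle replicate 1, 4 or 5 or JHU083 replicate 2, 4 or 5 was left out. It was also lost with the status at Rn18s-rs5 as a covariate (-0.24, adjusted p = 0.0511).

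Psmb5 (chr14:54614119-54618022), the chymotrypsin-like subunit, was counted at a locus shared with Mir686. It had 81.2, 70.1, 68.4, 71.8 and 77.7 CPM in vehicle and 53.0, 44.8, 87.2, 58.9 and 61.2 CPM in JHU083. JHU083 replicate 3 was the highest of all 10 libraries and the other 4 were below all vehicle libraries. The means of 73.8 ± 5.39 and 61.0 ± 15.9 CPM (SD, n = 5) corresponded to a log2 fold change of -0.28 (adjusted p = 0.134, SE 0.14), and -0.44 (adjusted p = 0.00185) without that library. Psmb5 passed in no other fit with a library left out, and the weakest gave -0.18, with adjusted p up to 0.288. Psmb6 (chr11:70525367-70527858), the caspase-like subunit, had 193, 168, 155, 196 and 203 CPM in vehicle and 148, 124, 225, 158 and 164 CPM in JHU083. Its highest value was again in JHU083 replicate 3, and 2 other JHU083 libraries overlapped the vehicle range. The means of 183 ± 20.6 and 164 ± 37.5 CPM (SD, n = 5) gave -0.16 (adjusted p = 0.361, SE 0.13), and -0.30 (adjusted p = 0.0206) without replicate 3. That was the only fit with a library left out in which Psmb6 passed, and the weakest gave -0.08, with adjusted p up to 0.668. Psmb1 (-0.18) and Psmb3 (-0.26) did not pass with all libraries; without replicate 3 all 7 beta genes were lower, with a median of -0.39, -0.56 for Psmb2, -0.49 for Psmb4 and -0.32 for Psmb7.

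Each catalytic subunit has an interferon-induced counterpart, and the ratio of the pair within a library does not depend on library size. The counterparts Psmb8, Psmb9 and Psmb10 were lower in JHU083, with log2 fold changes of -0.66 (adjusted p = 0.000553), -0.91 (adjusted p = 1.8e-05) and -0.60 (adjusted p = 0.00109). Fragments of Psmb9 relative to Psmb6 stood at 0.656, 0.615, 0.581, 0.582 and 0.578 in vehicle and at 0.412, 0.400, 0.293, 0.377 and 0.353 in JHU083. All JHU083 libraries were below all vehicle libraries. The mean log2 ratio went from -0.73 ± 0.08 to -1.46 ± 0.20 (SD, n = 5), a difference of -0.72 (exact two-sided permutation test, p = 0.0079, the smallest it can give; 0.0238 adjusted over the 3 ratios).

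Psmb8 relative to Psmb5 was 4.53, 4.56, 3.90, 4.85 and 4.76 in vehicle and 4.06, 3.90, 3.05, 3.34 and 3.37 in JHU083. The lowest vehicle library lay under the highest JHU083 library. The log2 ratio went from 2.173 ± 0.12 to 1.82 ± 0.17 (SD, n = 5), a difference of -0.35 (exact two-sided permutation test, p = 0.0159, adjusted 0.0238). Psmb10 relative to Psmb7 was 1.61, 1.56, 1.25, 1.49 and 1.57 in vehicle and 1.09, 1.26, 1.26, 1.25 and 1.10 in JHU083. Vehicle replicate 3 lay among the JHU083 libraries and the other 4 above them. The log2 ratio went from 0.57 ± 0.15 to 0.25 ± 0.11 (SD, n = 5), a difference of -0.32 (exact two-sided permutation test, p = 0.0317, adjusted 0.0317). JHU083 replicate 3 had the lowest ratio for Psmb8 to Psmb5 and for Psmb9 to Psmb6; without it the differences were -0.30, -0.64 and -0.34 in the order of Psmb8, Psmb9 and Psmb10.

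**Figure D3:**
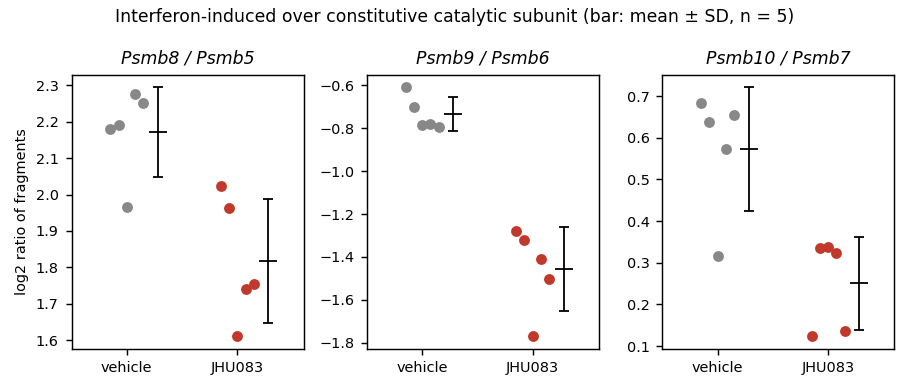
Log2 ratio of fragments of each interferon-induced catalytic subunit to the constitutive one it replaces (y axis, a separate scale in each panel), each point a library, vehicle in grey and JHU083 in red, with the mean ± SD as a bar. The JHU083 means are lower by 0.35, 0.72 and 0.32, and the groups do not overlap for Psmb9 to Psmb6.

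The base of the 19S particle unfolds substrates. Of its 6 ATPases, Psmc1, Psmc3, Psmc4 and Psmc5 were lower, and the median log2 fold change was -0.28. Psmc5 (chr11:106256154-106263120) was at 126, 107, 103, 116 and 125 CPM in vehicle and at 86.3, 74.0, 105, 82.7 and 90.6 CPM in JHU083. Only JHU083 replicate 3 reached the vehicle range. The Psmc5 mean went from 115 ± 10.4 to 87.6 ± 11.3 CPM (SD, n = 5) and had a log2 fold change of -0.40 (adjusted p = 0.0052, SE 0.09). Psmc3 (chr2:91054009-91066369) was at 190.5, 158, 146, 158 and 182 CPM in vehicle and at 133, 113, 166, 124 and 125 CPM in JHU083. The same library was the exception. Psmc3 went from 167 ± 18.2 to 132 ± 20.4 CPM (SD, n = 5) and had a log2 fold change of -0.34 (adjusted p = 0.022, SE 0.10), which was -0.18 (adjusted p = 0.0893) after correction for GC content and length. The Psmc3 call was also lost without vehicle replicate 1 or 5 or JHU083 replicate 2, 4 or 5 (adjusted p from 0.0518 to 0.0632).

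Psmc4 (-0.32, adjusted p = 0.0139) passed with any library left out. Psmc1 (-0.24, adjusted p = 0.0479) passed without vehicle replicate 3 and without JHU083 replicate 3, and without each of the other 8 libraries its adjusted p was 0.0528 to 0.125. Psmc2 (-0.17) did not pass, and Psmc6, at 0.05 (adjusted p = 0.702), was the ATPase with a positive log2 fold change. It did not pass without JHU083 replicate 3 either (0.01, adjusted p = 0.936). Without that library 5 of the 6 ATPases were lower, with a median of -0.35, -0.46 for Psmc5 and -0.43 for Psmc3.

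All 3 other base subunits were lower, with a median of -0.32. Psmd2 (chr16:20651652-20663414), a scaffold that binds ubiquitin shuttles, was at 319.9, 281, 275, 318 and 313 CPM in vehicle and at 228, 213, 269, 232 and 228 CPM in JHU083. The groups did not overlap, with JHU083 replicate 3 just under the lowest vehicle library. Its mean went from 302 ± 21.7 to 234 ± 20.9 CPM (SD, n = 5) and had a log2 fold change of -0.37 (adjusted p = 0.00231, SE 0.08). Psmd4 (chr3:95032694-95042614), a ubiquitin receptor, was at 126, 108, 114, 117 and 134 CPM in vehicle and at 90.2, 84.2, 110.3, 101 and 92.5 CPM in JHU083. JHU083 replicate 3 exceeded vehicle replicate 2, and the other 4 were below all vehicle libraries. Psmd4 went from 119.8 ± 10.1 to 95.7 ± 10.2 CPM (SD, n = 5) and had a log2 fold change of -0.32 (adjusted p = 0.00982, SE 0.09).

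Psmd1, the other scaffold, was counted at a locus shared with Armc9 and Gm21972. Its log2 fold change was -0.18 (adjusted p = 0.0496), the groups did not overlap, and without any library other than JHU083 replicate 3 the adjusted p was 0.0551 to 0.102. Without JHU083 replicate 3 the median of the 3 was -0.38, with -0.42 for Psmd2 and -0.38 for Psmd4. Over the whole base, 7 of 9 genes were lower.

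The lid holds the deubiquitinase Psmd14 and scaffold subunits around it. Of its 8 genes, Psmd3, Psmd7, Psmd11, Psmd12 and Psmd13 were lower, and the median log2 fold change was -0.25. Psmd3 (chr11:98682554-98695979), a scaffold subunit, was at 173, 162, 156, 153 and 189 CPM in vehicle and at 122, 111, 146, 123 and 119.9 CPM in JHU083. All JHU083 libraries were below all vehicle libraries. The Psmd3 mean went from 166 ± 14.6 to 124 ± 13.2 CPM (SD, n = 5) and had a log2 fold change of -0.42 (adjusted p = 0.00182, SE 0.09). Psmd13 (chr7:140881968-140898643), also a scaffold subunit, was at 144, 119, 109, 131 and 143 CPM in vehicle and at 98.1, 85.8, 125, 106 and 93.4 CPM in JHU083. JHU083 replicate 3 exceeded 2 vehicle libraries, and the other 4 were below all of them. Psmd13 went from 129 ± 14.9 to 102 ± 15.03 CPM (SD, n = 5) and had a log2 fold change of -0.34 (adjusted p = 0.0214, SE 0.11). After correction for GC content and length this was -0.23 (adjusted p = 0.0584), and without vehicle replicate 1 or 5 or JHU083 replicate 2 or 5 the adjusted p was 0.0518 to 0.0588. Within the samples above 0 for Rn18s-rs5, Psmd13 had -0.41 (adjusted p = 0.0585).

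Psmd7 (-0.31), the inactive partner of Psmd14, and Psmd11 (-0.27) passed with any library left out. Psmd12 (-0.23, adjusted p = 0.041) passed without JHU083 replicate 3 or 5, and without each of the other 8 libraries its adjusted p was 0.0503 to 0.113. Psmd14 itself (-0.13, adjusted p = 0.22), Psmd6 (-0.07) and Psmd8 (-0.04) did not pass, and these 3 did not pass with any library left out. Psmd14 was at 89.5 ± 4.61 and 81.8 ± 8.35 CPM in vehicle and JHU083 (SD, n = 5). Psmd8 was at 198 ± 14.1 and 192 ± 26.8 CPM (SD, n = 5). Without JHU083 replicate 3 the same 5 of 8 lid genes passed, with a median of -0.29, -0.48 for Psmd3 and -0.43 for Psmd13.

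The assembly chaperones help build the rings and the base and are absent from the finished particle. Of the 7 tested, Psmg2 and Psmg3 were lower (28.6%, against 18.3% of all loci tested), and the median log2 fold change was -0.27. Among loci that list 1 symbol, 1 of 6 chaperones was lower, against 18.6% of such loci. Psmg2, which pairs with Psmg1 to assemble the alpha ring, was at 16.2, 13.8, 12.5, 15.8 and 12.6 CPM in vehicle and at 9.41, 9.73, 11.8, 10.5 and 10.5 CPM in JHU083. The groups did not overlap. Its mean went from 14.2 ± 1.75 to 10.4 ± 0.915 CPM (SD, n = 5) and had a log2 fold change of -0.45 (adjusted p = 0.00668, SE 0.11). Within the samples above 0 for Rn18s-rs5 it was -0.49 (adjusted p = 0.0669). Psmg3 (chr5:139823592-139826885), which pairs with Psmg4 and was counted at a locus shared with Gm26938 and Tmem184a, was at 20.4, 16.8, 14.9, 19.5 and 18.5 CPM in vehicle and at 14.3, 11.4, 16.6, 14.0 and 9.95 CPM in JHU083. JHU083 replicate 3 was inside the vehicle range. Psmg3 went from 18.0 ± 2.16 to 13.2 ± 2.59 CPM (SD, n = 5) and had a log2 fold change of -0.45 (adjusted p = 0.0208, SE 0.14), which was -0.25 (adjusted p = 0.0807) after correction for GC content and length. Without vehicle replicate 1 or JHU083 replicate 2 or 5 the adjusted p was 0.0525 to 0.0570.

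Psmg1 (-0.39, adjusted p = 0.0745) and Psmg4 (-0.27, adjusted p = 0.092) did not pass; without JHU083 replicate 3 they were -0.57 (adjusted p = 0.00143) and -0.39 (adjusted p = 0.00395). In that fit 5 of 7 chaperones were lower, with a median of -0.39, -0.50 for Psmg2 and -0.54 for Psmg3. The base chaperones Psmd9 (-0.15), Psmd10 (0.04) and Psmd5 (0.00) did not pass. Psmd5 was at 26.7 ± 2.82 in vehicle and 26.7 ± 2.07 CPM after JHU083 (SD, n = 5), and Psmd10 at 27.7 ± 0.964 and 28.4 ± 3.57 CPM (SD, n = 5). The inhibitor Psmf1 (chr2:151715812-151744186), which blocks the core and its activation, was at 26.1, 23.8, 25.9, 24.5 and 27.0 CPM in vehicle and at 23.5, 21.2, 24.8, 20.9 and 23.1 CPM in JHU083. The groups overlapped at JHU083 replicate 3. The means of 25.5 ± 1.27 and 22.7 ± 1.65 CPM (SD, n = 5) corresponded to a log2 fold change of -0.17 (adjusted p = 0.123, SE 0.08), and -0.20 (adjusted p = 0.0551) without that library.

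Set side by side, the median log2 fold change was -0.26 over the 15 tested genes of the core, -0.32 over the 9 of the base, -0.25 over the 8 of the lid and -0.42 over the 4 activators. Without JHU083 replicate 3 the medians were -0.36 for the alpha ring, -0.39 for the beta ring, -0.35 for the ATPases and -0.38 for the other base subunits, -0.29 for the lid and -0.45 for the activators. After correction for GC content and length the order changed, with -0.34 for the alpha ring, -0.20 for the beta ring, -0.20 for the ATPases and -0.22 for the other base subunits, -0.22 for the lid and -0.30 for the activators. The base medians were then at the level of the beta ring and the lid. Summed CPM of the core was 2087 ± 163 in vehicle and 1720 ± 287 in JHU083 (SD, n = 5), a ratio of means of 0.824. The lid had 880 ± 53.5 and 756 ± 85.2 CPM (SD, n = 5), a ratio of 0.859. In both roles the groups overlapped because JHU083 replicate 3, with 2193 CPM for the core and 892 CPM for the lid, lay inside the vehicle range. The other 4 JHU083 libraries, at 1408 to 1668 CPM for the core and 656 to 752 CPM for the lid, were below all vehicle libraries. The activators and the 3 non-ATPase subunits of the base (596 ± 31.5 and 484 ± 41.7 CPM, SD, n = 5) did not overlap between groups. The differences between roles were not tested.

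The libraries differed in how many members were low. In JHU083 replicates 1, 2, 4 and 5, between 40 and 43 of the 44 tested members were below their vehicle mean, against 24 in replicate 3. In that library the median beta gene was at 1.13 of its vehicle mean, the median chaperone at 1.10 and the median activator at 0.792. The activator median was 0.674 to 0.753 in the other JHU083 libraries, but it mixes opposite moves. Psme4 was below every vehicle library in replicate 3 and above every one in the other JHU083 libraries. Psme1 and Psme2 were higher in replicate 3 (222 and 158 CPM) than in the other JHU083 libraries, and Psme3 lay among them. The vehicle libraries also spread: 4 members were below their vehicle mean in replicate 1 and 38 in replicate 2. Over all 46 loci the summed CPM was 5088 ± 348 in vehicle and 4174 ± 535 in JHU083 (SD, n = 5), with the groups overlapping. Apart from replicate 3 the JHU083 libraries were at 3559 to 4109.9 CPM, below the lowest vehicle library at 4677 CPM.

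**Figure D4:**
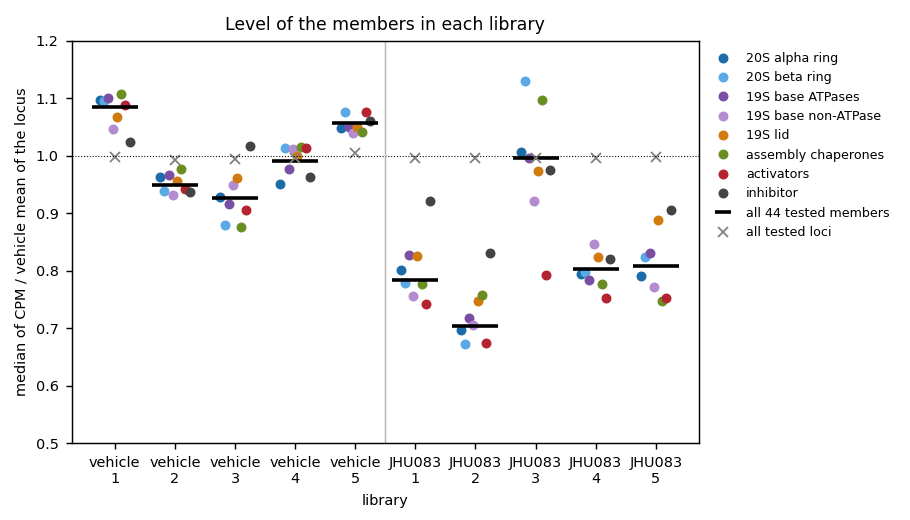
Median over the members of each role of CPM divided by the locus's vehicle mean (y axis, starting at 0.5) in each of the 10 libraries (x axis), with a black bar for all 44 members and a grey cross for all tested loci. JHU083 replicate 3 is at 0.997 for all members and at 0.792 for the activators, while the other JHU083 libraries are at 0.704 to 0.808 for all members. The activator median takes in Psme4, which is below all vehicle libraries in replicate 3 and above them in the other JHU083 libraries.

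Levels between genes were compared per length, in the deposited FPKM. The length that this column implies for a locus varied between libraries (61.8% to 69.9% of loci were within 5% of the ratio in vehicle replicate 1), so these levels are approximate. In vehicle, Psme1 (295 ± 30.1 FPKM), Psmb4 (291 ± 23.3), Psmb6 (287 ± 29.9), Psma7 (279 ± 21.6) and Psme2 (265 ± 32.5; SD, n = 5 for each) were at the top, within each other's spread. In JHU083 the means of Psmb6 (256 ± 55.8 FPKM), Psmb4 (230 ± 44.7) and Psma7 (222 ± 41.4) were above those of Psme1 (205 ± 24.3) and Psme2 (167 ± 19.2; SD, n = 5 for each). Tested subunits of the core lay between 97.1 and 291 FPKM in vehicle, Psma8 at 1.64 FPKM apart, and those of the lid between 32.1 and 158 FPKM. The chaperones lay between 7.20 and 76.0 FPKM and Psme4 at 10.9 FPKM.

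**Figure D5:**
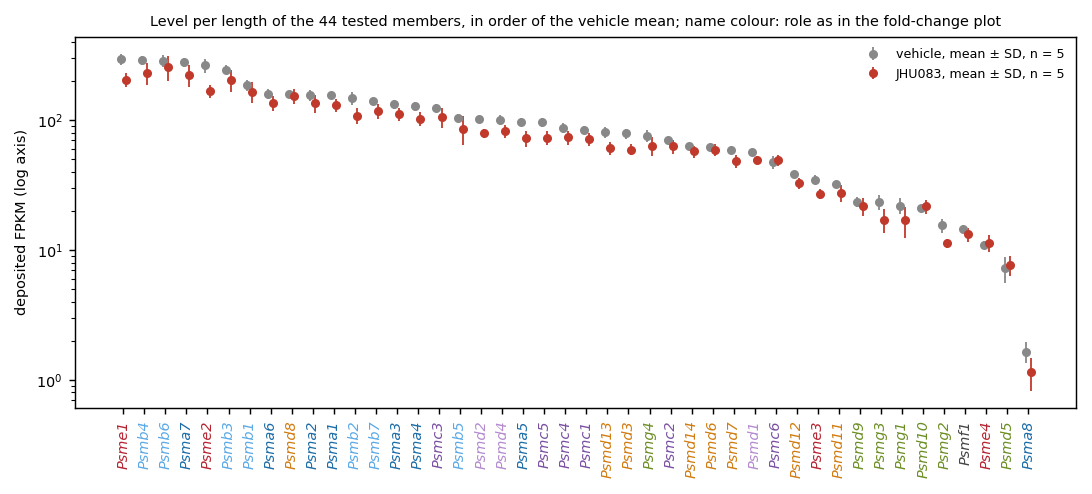
Deposited FPKM (y axis, log scale) of the 44 tested members in order of their vehicle mean (x axis), mean ± SD over 5 libraries, vehicle in grey and JHU083 in red. Most core genes are in the upper left, with the activator Psme1 first at 295 FPKM and the core gene Psmb4 next at 291 FPKM in vehicle, and the chaperones, Psme4 and Psma8 are at the right.

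Other genes of the pathway were called in both directions, at shares near those of all loci. Of 32 tested, the interferon-induced subunits left out, 7 were higher and 7 lower (21.9% each way, against 18.4% and 18.3% of all loci), with a median log2 fold change of -0.07. Among subunits and assembly factors without a Psm name, Pomp (-0.40), the core maturation protein, and Adrm1 (-0.36), a ubiquitin receptor of the base, were lower and Shfm1 (-0.24), a small lid subunit, did not pass. Of 13 bound and shuttle factors, 2 were higher, Zfand2a (0.50) and Zfand5 (0.47), which bind the proteasome, and 3 were lower, among them Ubqln4 (-0.37) and Usp14 (-0.25). Of 6 ubiquitin and ubiquitin-activating genes, the E1 enzyme Uba1 (-0.21, adjusted p = 0.0235) was lower; this call was lost without vehicle replicate 1 or 5 or JHU083 replicate 4 or 5 (adjusted p from 0.0565 to 0.0680).

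Nfe2l1 is the transcription factor that raises proteasome genes when the proteasome is impaired. Nfe2l1 itself did not pass (-0.12, adjusted p = 0.161). Of the 10 genes of its axis, 5 were higher and 1 lower, against 18.4% higher and 18.3% lower over all loci tested. The higher genes were Ngly1 (0.50, adjusted p = 0.000216) and Ddi2 (0.39), the enzymes that deglycosylate and cleave Nfe2l1, the partners Maff (0.51) and Mafk (0.50), and the related factor Nfe2l2 (0.33). The Maff call (adjusted p = 0.0254) was lost without vehicle replicate 1 or 5 or JHU083 replicate 1 or 4 (adjusted p from 0.0596 to 0.0723), which leaves 4 higher. The lower one was Vcp (-0.23), which extracts Nfe2l1 from the endoplasmic reticulum.

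Markers of tumour epithelium and fibroblasts and of the cell cycle were mostly lower in JHU083. All 9 markers of tumour epithelium were lower, and their summed CPM was 287 to 621 in vehicle and 101 to 216 in JHU083. Of 10 cell cycle genes, 9 were lower, with 535 to 611 CPM in vehicle and 240.1 to 354 CPM in JHU083. JHU083 replicate 3 had the lowest value of both sums, whereas its proteasome level was the highest in its group. Fibroblast genes (4 of 5 lower) had 98.5 to 219 and 24.5 to 110.02 CPM in vehicle and JHU083. Of these calls, that of Col1a2 (-0.80) was lost without vehicle replicate 1, 2, 3 or 4 or JHU083 replicate 4 or 5 (adjusted p from 0.0560 to 0.116), and that of Col1a1 (-1.06) without vehicle replicate 2 or JHU083 replicate 4 (adjusted p from 0.0548 to 0.0550). Of 3 endothelial genes Pecam1 was lower (-1.52, adjusted p = 0.00035; means of 151 and 52.5 CPM), and Cdh5 (-0.49) and Kdr (-0.15) did not pass. Their summed CPM, mostly Pecam1, was 122 to 209 in vehicle and 33.9 to 82.1 in JHU083. The 9 macrophage markers, of which 3 were higher, summed to 12805 to 16605 CPM in vehicle and 15015 to 19385 CPM in JHU083. Cd3e, Cd3d, Cd8a, Ly6g, Ncr1, Epx, Il5ra and the B cell genes Cd79a and Ms4a1 were under 1 CPM in every library. Of 6 tested neutrophil genes, S100a8 (-1.40, adjusted p = 0.000872) and S100a9 (-2.18, adjusted p = 0.000196) were lower and Csf3r (0.53, adjusted p = 0.000663) was higher, each with no overlap of the groups. Their list summed to 97.2 to 109 CPM in vehicle and 98.2 to 151 CPM in JHU083, of which Csf3r made up most. The T cell, NK cell, dendritic cell and eosinophil lists each summed to at most 17.4 CPM in any library. Of their tested genes the eosinophil marker Siglecf was higher in JHU083 (0.89, adjusted p = 0.0115). The part of tumour cells, stromal cells and cell cycle in the proteasome results was not tested.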

How the data were processed

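Each of the 10 deposited tables gives 2 values per locus. A raw count column was deposited, per the file headers, but its values are not whole. These deposited values were handled like expected counts: nearly all are whole multiples of a step of 0.888 to 1.17 per sample. Dividing by the step and rounding recovered fragments, with at least 99.9% of positive values whole within 0.1; this scaling is inferred. The column headed normalized was taken from its values to be FPKM deposited by the authors, and was used only to compare levels between genes. Per the submitters' processing notes, TopHat2 2.1.1, bcl2fastq 2.17.1.14, FastQC 0.11.2 and the build GRCm38 were named; the counter, its annotation, its use of strand and its handling of reads shared with pseudogenes are not given in the sources used here.

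JHU083 and vehicle, 5 samples each, were compared with the edgeR 4.0.16 quasi-likelihood test (R 4.3.3; filterByExpr, TMM, Benjamini-Hochberg at 0.05 over 12501 loci). Adjusted p-values for genes are from this fit or a stated alternative. The SE of a log2 fold change is its size over the square root of F, and CPM are TMM-scaled. On simulated counts for 12501 loci with 200 changed by 1 (log2), 97% were recovered with 7.62% false among the calls; with none changed there were 0 calls. Recovery at the log2 fold changes of the tested members (-0.74 to 0.17, median -0.27) was not tested. Positions are from GENCODE M21 and promoters from RefSeq. Python 3.11.15, numpy 2.4.6 and pandas 2.3.3 were used.

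Alternatives were limma-voom (limma 3.58.1), DESeq2 1.42.0, other scalings and filters, deposited values rounded, fewer loci, status at Rn18s-rs5 as a covariate or a split, GC content and length (mgcv 1.9.3), the replicate number as a block, and each library left out. For 20 members (the leading pair of each role by size of change among those passed, all activators, the inhibitor and the catalytic subunits) every sample's value is given. Members, roles and lists were chosen with earlier results of these data known. Within groups, libraries differed by more than sampling noise (chi-square per degree of freedom at least 5.80), so none was merged. At these depths 3 fragments are 0.191 to 0.269 CPM. Single values of 2 listed genes are not reported here.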

Additional observations from a re-analysis of the deposited data

Results flagged for a closer look

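The summed level of the assembly chaperones had 1 JHU083 library far from the others. On the log2 CPM scale JHU083 replicate 3 was at 7.493, and the other 4 libraries lay between 7.076 and 7.154. The gap to the nearest library was 0.814 of the group's range, above the limit of 0.71 for 5 samples. This was 1 of 60 groups of 5 examined, and chance alone marks about 1 in 20 such groups. The same library was the highest of its group in the summed level of each role of the core, base and lid, and whether a technical difference of the library has a part in this was not tested.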

How the results depend on the processing

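Over 26 alternatives the 20 members described by sample gave 518 comparisons, of which 467 kept direction and call, 45 kept direction and lost the call, 5 gained it and 1 reversed: Psme4 within the samples listed at 0 for Rn18s-rs5, at -0.07 (-0.0688). That split left 3 vehicle and 2 JHU083 samples and gave 1 lower member, with 532 loci higher and 586 lower; the other samples gave 1334 higher and 1518 lower loci. Fewer samples were tested in both. With each library left out, members lower ranged from 15 to 36, members higher from 0 to 1, all loci higher from 1823 to 2895 and all loci lower from 1899 to 2929. Scaling by library size alone gave 34 lower members, with 1564 loci higher and 3141 lower and a median over all loci of -0.07. DESeq2 gave 24 lower and 0 higher members, as did limma-voom.

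The labels number samples 1 to 5 in both groups and do not say whether the numbers pair them. Same-numbered samples did not deviate together (correlations of -0.57 to 0.09), so no pairing was seen, although this cannot exclude one. With the replicate block, 17 members were lower and 0 higher, with 1612 loci higher and 1757 lower. Psmb7 (adjusted p = 0.0517) and Psmd13 (adjusted p = 0.0559) did not pass there. For the catalytic pairs Psmb8 to Psmb5, Psmb9 to Psmb6 and Psmb10 to Psmb7 the replicate block left the log2 differences at -0.3542, -0.7227 and -0.3215, where no exact p under 0.0625 is possible. Within the samples listed at 0 for Rn18s-rs5 they were -0.4228, -0.7655 and -0.3902, and in the others -0.2528, -0.715 and -0.2352, both too few to reach the threshold. With each library left out they ranged from -0.4062 to -0.3022, -0.7673 to -0.6443 and -0.3855 to -0.2896.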
